A study of Mus musculus with 22 samples.

Results

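The receptor protein tyrosine phosphatases are transmembrane enzymes that remove phosphate from tyrosine residues and carry adhesion-like domains outside the cell. The members described here are 10 genes taken by symbol, Ptprd, Ptprf and Ptprs of the LAR subfamily, Ptprk, Ptprm, Ptprt and Ptpru of the MAM domain subfamily, Ptprg and Ptprz1 with a carbonic anhydrase-like domain, and Ptpro. Of these, 9 had a probe set under their symbol, 33 probe sets in all, among 18194 genes with 34958 probe sets that carry a single symbol. Ptprt was not analysed here. A filter on dim signals, which kept probe sets whose mean log2 signal over all arrays reached the median of 6.44, left 25 of the 33 and all 9 genes.

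Receptors of the LAR subfamily sit mainly at growing axons and presynaptic terminals, where they bind postsynaptic partners such as Slitrk proteins and Il1rapl1 and the sugar chains of proteoglycans. Receptors of the MAM domain subfamily bind their own kind on neighbouring cells and meet cadherins and catenins at cell contacts. Ptprg and Ptprz1 bind contactins, and Ptprz1, itself a chondroitin sulfate proteoglycan that is abundant in glia and glial precursors, also binds the growth factors pleiotrophin and midkine.

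Affymetrix arrays were hybridised with RNA of cerebellar granule cells from pups at postnatal day 7, 22 arrays in 6 groups. The strain is given as C56Bl6/J in the labels and as C57BL/6N in the methods. Chd7 mutant cells (n = 4), in the study Chd7 f/f with Atoh1-Cre, whose driver is active in granule neuron progenitors, were set against cells labelled wild type (n = 4), in the study Chd7 f/f without Cre. Cells kept with the topoisomerase II inhibitor ICRF-193 (10 µM, 12 h, n = 4) were set against cells with its solvent DMSO (n = 4), with no genotype in the labels of either. Cells cultured with Smo2 (n = 3), which the labels do not explain and for which the study describes the Smoothened agonist SAG, were set against cells without it (n = 3). The sources describe enrichment of progenitors on a percoll gradient and do not separate pups by sex. They call the replicates biological without saying whether each was a separate animal or litter, so p-values measure the spread between these arrays.

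Of 8 markers of the labelled granule neuron lineage 7 passed the filter, and their mean log2 signal lay between 12.07 and 12.74 on every array. The other, Gabra6 of mature granule neurons, was dim, with group means between 5.38 and 7.03. Of markers of other cells, 7 for the oligodendrocyte lineage, 9 for astrocytes and Bergmann glia, 5 of 8 for microglia and 6 for fibroblasts passed the filter, which is set on the mean over all arrays. The mean of the fibroblast markers was between 5.92 and 6.16 on arrays without Smo2, below the filter. In the mutant comparison the mean of 3 Y-linked genes lay between 8.38 and 9.03 on control arrays and between 4.00 and 6.95 on mutant arrays, and its part in the results below was not tested. Proliferation markers (5 measured) had a mean between 13.28 and 13.29 with Smo2 and between 10.21 and 10.26 without it. In bulk RNA fewer cells of a type and less RNA per cell cannot be told apart. Of the targeted gene Chd7, the dimmer bright probe set fell by 2.03 in mutant arrays (limma adjusted p = 0.00342), and the brighter had a change of -0.25 (adjusted p = 0.299). With ICRF-193 both fell, with changes of -1.28 (adjusted p = 0.00550) and -1.35 (adjusted p = 0.000893). Both also fell with Smo2, with changes of -0.72 (adjusted p = 0.000105) and -0.67 (adjusted p = 0.000204). Arrays with replicate numbers 1 and 2 resembled each other within the mutant and ICRF-193 comparisons, as did those with 3 and 4. Changes within these sets are given below for the brightest probe sets of Ptprk, Ptpru and Ptprz1 in the mutant only, and other probe sets differed between sets too.

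The members spanned a wide range of gene length in the GRCm38.p6 annotation. Ptprd covered 2271 kb, Ptprg 688.6 kb, Ptprm 687.6 kb and Ptprk 522.6 kb (chr10:28074820-28597397). Ptpro covered 212.3 kb, Ptprz1 177.6 kb, Ptprf 83.19 kb, Ptpru 69.85 kb (chr4:131768457-131838306) and Ptprs 64.14 kb. Ptprk and Ptpru are therefore close relatives of very different length. Of the pairs of paralogues compared below, their changes lay furthest apart: Ptprk fell and Ptpru rose both in the mutant and with ICRF-193. Ptpru passed the filter through the groups where it was high, so this contrast is given as a description.

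RefSeq promoters, from 250 bases before to 50 after a transcript start in GRCm38.p6, were given for 9 of the 10 members, all but Ptprd. The promoters of Ptprk and Ptprg, which fell with ICRF-193, and of Ptpru, which rose, are shown so that the start of each gene can be compared. Capitals mark a GC box, GGGCGG or its reverse complement CCGCCC. The window of Ptprk lies on the plus strand (chr10:28074570-28074869), that of Ptprg on the plus strand (chr14:11553303-11553602, the upstream of its 2 listed starts) and that of Ptpru on the minus strand (chr4:131838229-131838528).
Ptprk: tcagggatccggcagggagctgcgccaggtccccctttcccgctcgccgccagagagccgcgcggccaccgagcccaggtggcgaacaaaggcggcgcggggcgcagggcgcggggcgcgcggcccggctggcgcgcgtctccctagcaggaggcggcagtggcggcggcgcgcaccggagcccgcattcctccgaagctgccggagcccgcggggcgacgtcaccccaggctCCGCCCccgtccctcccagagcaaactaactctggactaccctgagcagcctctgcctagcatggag
Ptprg: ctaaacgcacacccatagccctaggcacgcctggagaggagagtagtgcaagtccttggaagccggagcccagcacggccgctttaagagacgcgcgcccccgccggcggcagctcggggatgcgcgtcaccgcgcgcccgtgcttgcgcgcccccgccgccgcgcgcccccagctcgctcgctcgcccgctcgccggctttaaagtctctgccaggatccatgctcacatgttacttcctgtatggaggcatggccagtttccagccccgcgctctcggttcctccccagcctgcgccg
Ptpru: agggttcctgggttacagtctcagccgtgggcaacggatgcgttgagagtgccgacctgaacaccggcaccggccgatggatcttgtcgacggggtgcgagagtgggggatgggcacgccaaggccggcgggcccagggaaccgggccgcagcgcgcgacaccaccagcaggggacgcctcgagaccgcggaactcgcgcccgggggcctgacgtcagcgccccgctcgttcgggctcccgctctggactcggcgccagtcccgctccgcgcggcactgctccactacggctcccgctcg
All 3 windows were rich in G and C, with 75.0% in Ptprk, 69.0% in Ptprg and 72.3% in Ptpru against a median of 52.7% over 32851 promoters of the same length. They held 38, 36 and 40 CpG dinucleotides, where the median promoter held 7. The GC box occurred once in Ptprk, in no other of the 3, and in 35.7% of all promoters on either strand. The E-boxes CAGCTG (16.3% of all promoters) and CATCTG or CAGATG (17.2%), letters bound by basic helix-loop-helix factors, and the TATA box TATAAA or TTTATA (13.6%) occurred in none of the 3 windows. These are letters in the reference, and no binding was measured here.

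Mutant and control cells were compared to find transcripts that depend on the chromatin remodeller Chd7. Of 25 receptor phosphatase probe sets, 8 fell (32%) and 1 rose (4%) in the mutant, where 3.44% of all 22551 probe sets tested fell and 3.41% rose. Those that fell belonged to Ptprk (4 of 4), Ptprd (3 of 4) and Ptprg (1 of 4), and the probe set that rose was that of Ptpru. The median change over the 25 was -0.16 on the log2 scale, and over all probe sets tested it was -0.02. Of all calls 50.2% were lower after quantile normalization, 42.1% as deposited and 63.1% after median centring.

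The brightest Ptprk probe set had log2 signals of 10.75, 10.80, 11.10 and 11.19 in control arrays and of 9.89, 9.98, 9.36 and 9.39 in mutant arrays. Every mutant array was below every control array. Its mean fell from 10.96 ± 0.22 to 9.66 ± 0.32 (SD, n = 4), a 2.47-fold decrease (limma adjusted p = 0.00466). The change was -0.84 within replicates 1 and 2 and -1.77 within replicates 3 and 4. The other 3 bright Ptprk probe sets fell too, with changes of -0.97 (adjusted p = 0.0147), -1.68 (adjusted p = 0.0136) and -2.06 (adjusted p = 0.0105). The steepest of them read 9.42, 9.34, 9.27 and 9.47 in control arrays and 7.87, 8.05, 6.93 and 6.42 in mutant arrays, a 4.16-fold decrease. A further Ptprk probe set lay just below the filter, with a mean of 6.42, and fell out of the test. Its signals were between 7.57 and 7.84 in control arrays and between 4.66 and 6.39 in mutant arrays. With the means of the 2 replicate sets as samples, no receptor phosphatase probe set passed in the mutant, and the brightest Ptprk probe set had an adjusted p of 0.169.

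Ptpru, whose product like that of Ptprk carries a MAM domain, had 6.33, 5.98, 5.87 and 6.40 in control arrays and 6.78, 7.22, 7.52 and 7.61 in mutant arrays. Every mutant array was above every control array. Its mean rose from 6.14 ± 0.26 to 7.28 ± 0.37 (SD, n = 4), a 2.20-fold increase (limma adjusted p = 0.0145). Its mean over all arrays, 6.81, lay just above the filter while the control mean lay below it, so it passed through the groups where it was high. With no filter its adjusted p was 0.0476. Within the sets its change was 0.85 and 1.43, and it missed the threshold with set means as samples (adjusted p = 0.132). The other Ptpru probe set had a mean of 4.48 and lay at the floor of the scale on 8 of the 22 arrays.

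Ptprd, a presynaptic organiser and the longest member, had smaller changes in its 4 bright probe sets. Its brightest probe set read 11.95, 11.92, 12.17 and 12.20 in control arrays and 11.40, 11.61, 11.72 and 11.83 in mutant arrays. These groups did not overlap, and the change of -0.42 missed the threshold (adjusted p = 0.0634) but passed once the replicate number entered as a block (0.0253). The others fell, with changes of -0.34 (adjusted p = 0.0374), -0.46 (adjusted p = 0.0131) and -0.39 (adjusted p = 0.0426). The first of these calls was lost without any single array other than mutant replicate 4 (adjusted p up to 0.0973), and the last without any single array other than control replicate 4 (adjusted p up to 0.108). Leaving out any array thus left 6 or 7 of the 8 probe sets that fell. The last was also lost with the block (adjusted p = 0.0689), as deposited (0.0701) and with no filter (0.0738). A variance trend with robust moderation (0.0937) and the methods' t-test after adjustment (0.0613) lost it as well. With no filter the first was lost too (adjusted p = 0.0530). Of 3 dim Ptprd probe sets left out by the filter, 1 read between 5.91 and 6.14 in control and between 4.00 and 4.83 in mutant arrays, with 1 mutant array at the floor, and had an adjusted p of 0.0110 with no filter.

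The probe sets of Ptprg, a receptor for contactins, disagreed with each other. One read 10.13, 10.10, 10.17 and 10.06 in control arrays and 9.72, 9.72, 9.67 and 9.73 in mutant arrays, groups that stood well apart, and it fell by 0.40 (adjusted p = 0.00599). The brightest read 10.22, 10.19, 10.41 and 10.28 in control arrays and 10.29, 10.23, 10.32 and 10.33 in mutant arrays. These overlapped, with a change of 0.02 (adjusted p = 0.907). Its sign turned with median centring of the arrays (-0.06). The position of each probe set within Ptprg is not given by the sources used.

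Ptprz1 had the largest changes above 0 after Ptpru without a call. Its brightest probe set read 9.004, 8.97, 9.68 and 9.72 in control arrays and 9.79, 9.88, 10.62 and 10.60 in mutant arrays. The mutant arrays were above all control arrays, but replicates 3 and 4 were higher than 1 and 2 in both groups. The change of 0.88 (SE 0.26, adjusted p = 0.0893) and those of 0.94 (adjusted p = 0.0834) and 0.60 (adjusted p = 0.371) in the other probe sets missed the threshold. In the fit blocked on replicate number all 3 passed (adjusted p = 0.00535, 0.00619 and 0.0169), and the number of member probe sets that rose went from 1 to 4. Within the sets the brightest changed by 0.85 and 0.91.

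**Figure D1:**
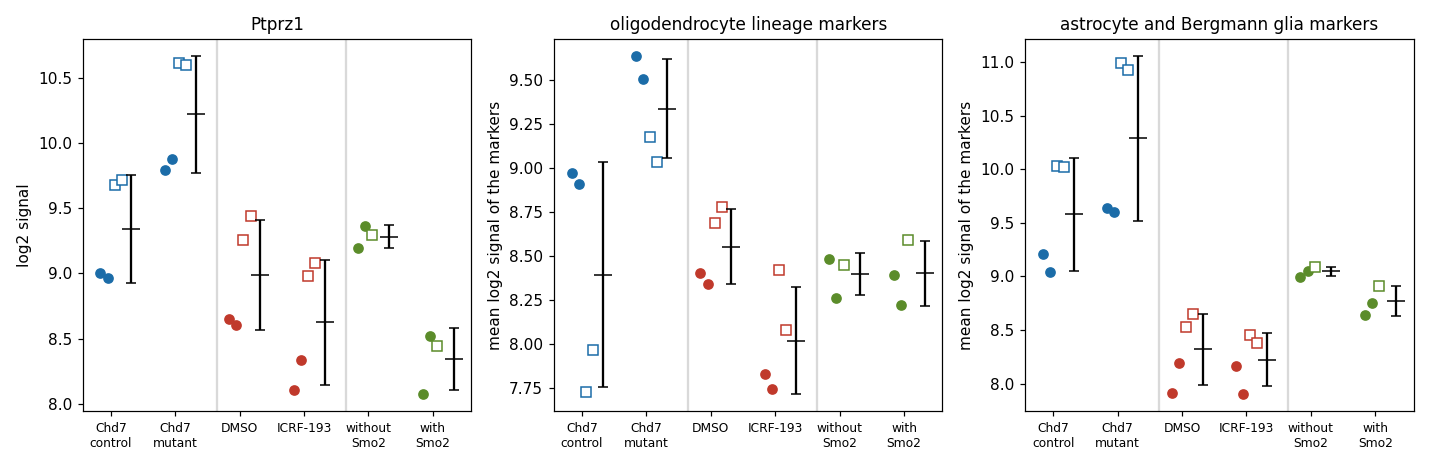
Log2 signal of the brightest Ptprz1 probe set (left) and mean log2 signal of 7 oligodendrocyte lineage (middle) and 9 astrocyte and Bergmann glia markers (right) on each array by group, where replicates 1 and 2 are filled circles, any other replicate is an open square and the black dash and bar give mean ± SD. Ptprz1 was between 9.79 and 10.62 on mutant arrays and between 8.97 and 9.72 on control arrays, and the oligodendrocyte lineage mean was likewise above all control arrays (9.03 to 9.64 against 7.73 to 8.97).

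Marker lists of other cells also had higher values beside Ptprz1. Their counts stand beside 3.41% of all probe sets tested that rose in the mutant and 3.44% that fell. The 7 measured oligodendrocyte lineage markers had a median change of 1.09 in the mutant, with 1 called higher, Pdgfra (1.02, adjusted p = 0.0280), and their mean signal lay between 9.03 and 9.64 on mutant and between 7.73 and 8.97 on control arrays. The 9 astrocyte and Bergmann glia markers had a median change of 0.72, with 1 called higher, the gap junction gene Gja1 (0.86, adjusted p = 0.0159), and means between 9.60 and 10.99 against 9.04 and 10.03. The 5 proliferation markers had a median change of 0.68, with 1 called higher (3 at an unadjusted p under 0.05), and means between 10.17 and 11.08 on mutant and between 9.60 and 10.27 on control arrays. Granule lineage markers had a median change of -0.15 with 1 of 7 called lower (1 lower and 1 higher at an unadjusted limma p under 0.05). Fibroblast markers had a median change of 0.83 with 2 of 6 called higher, and microglial markers one of -0.92 with 0 of 5 called by limma (2 lower at an unadjusted p under 0.05). None of the glial markers with a probe set was at the floor on every array, and the part of these cells in the Ptprz1 and other member values was not tested.

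Ptprf, Ptprs, Ptprm and Ptpro did not pass in the mutant. The brightest Ptprf probe set had a change of -0.19 (adjusted p = 0.216), that of Ptprs one of -0.03 (adjusted p = 0.884), that of Ptprm one of 0.22 (adjusted p = 0.293) and that of Ptpro one of 0.03 (adjusted p = 0.950). The signs of the Ptprs and Ptpro values turned under other settings.

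**Figure D2:**
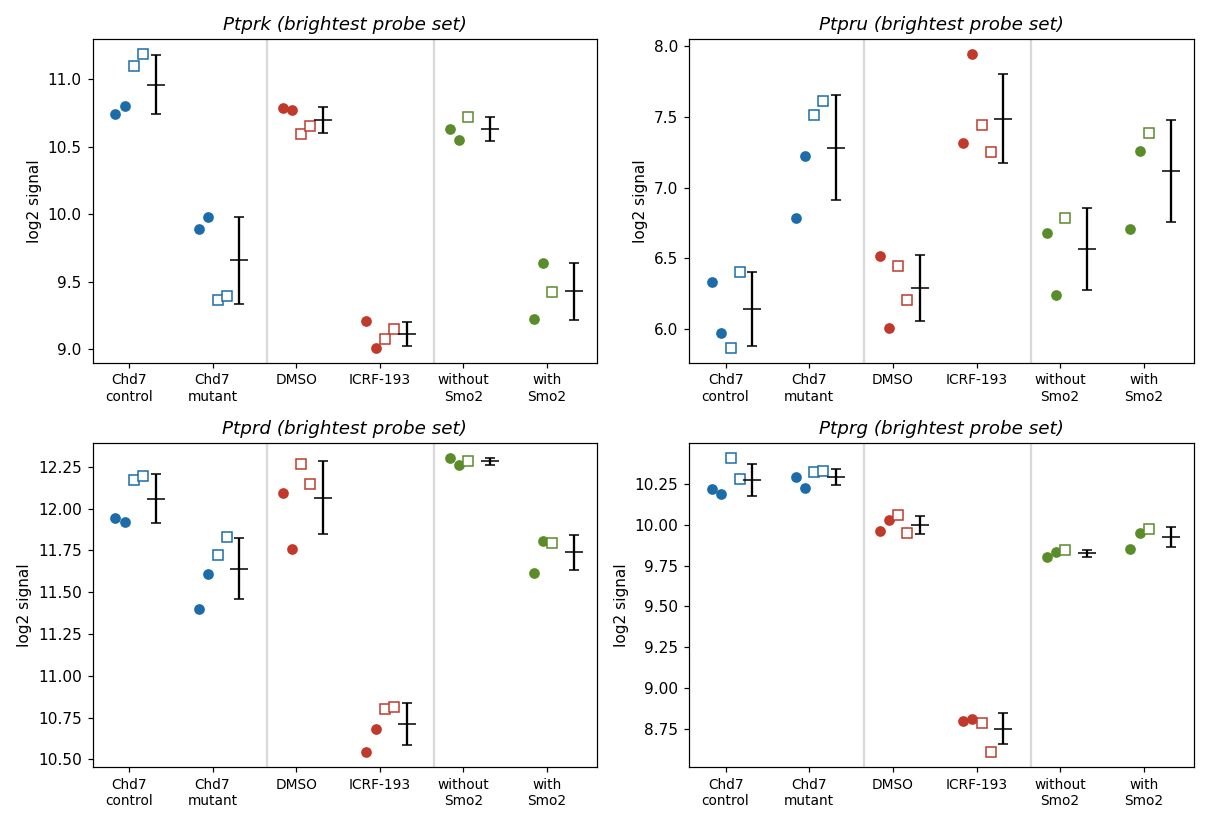
Log2 signal of the brightest probe set of Ptprk, Ptpru, Ptprd and Ptprg on each array, by group, where replicates 1 and 2 are filled circles, any other replicate is an open square and the black dash and bar give mean ± SD (each panel has its own log2 axis). Mutant, ICRF-193 and Smo2 arrays of Ptprk lie between 9.01 and 9.98, below all their control arrays (10.55 to 11.19), while Ptpru is higher in the mutant and with ICRF-193.

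ICRF-193 was set against DMSO to find transcripts that depend on type II topoisomerase activity. With ICRF-193, 11 of the 25 probe sets fell (44%) and 1 rose (4%), where 2.77% of all probe sets tested fell and 1.98% rose. All 4 bright probe sets of Ptprk, all 4 of Ptprd and 3 of 4 of Ptprg fell, and that of Ptpru rose. The median change of the 25 was -0.52 and that of all probe sets 0.01. Beside this, the 7 oligodendrocyte lineage markers had a median change of -0.61 with 0 called by limma (unadjusted, 5 were lower and 1 was higher). The 3 interneuron markers had one of -0.42 with 1 called lower, Gad1, and granule lineage markers one of -0.09 with 0 of 7 called (1 lower and 1 higher unadjusted). The part of other cells in the member values was not tested.

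The brightest Ptprk probe set had 10.79, 10.77, 10.59 and 10.65 with DMSO and 9.21, 9.01, 9.07 and 9.15 with ICRF-193. Replicates lay close together and the groups far apart. The mean fell from 10.70 ± 0.09 to 9.11 ± 0.09 (SD, n = 4), a 3.01-fold decrease (limma adjusted p = 4.08e-05), and the other bright probe sets fell with changes of -1.37, -1.56 and -1.89. Ptpru read 6.51, 6.01, 6.44 and 6.21 with DMSO and 7.32, 7.95, 7.44 and 7.25 with ICRF-193. All treated arrays were above all DMSO arrays, and the mean rose from 6.29 ± 0.23 to 7.49 ± 0.32, a 2.29-fold increase (limma adjusted p = 0.00625, or 0.0276 with no filter). With set means as samples Ptprk kept its call (adjusted p = 0.0295) and Ptpru missed the threshold (adjusted p = 0.0558).

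The brightest Ptprd probe set had 12.09, 11.76, 12.27 and 12.15 with DMSO and 10.54, 10.68, 10.80 and 10.81 with ICRF-193. It fell by 1.36, a 2.56-fold decrease (limma adjusted p = 0.000469), with groups more than a unit apart, and the others fell with changes of -1.43, -1.23 and -0.85. The brightest Ptprg probe set had 9.96, 10.03, 10.06 and 9.95 with DMSO and 8.80, 8.81, 8.79 and 8.61 with ICRF-193. It fell by 1.25 (adjusted p = 8.24e-05), the 2.37-fold decrease being larger than any spread within a group, and 2 others fell with changes of -1.35 and -0.95. The dimmest Ptprg probe set had a change of -0.35 (adjusted p = 0.105, or 0.0316 and called lower in 1 limma fit of all arrays).

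Ptprf, Ptprs, Ptpro, Ptprz1 and Ptprm did not pass with ICRF-193. The brightest Ptprf probe set had 0.19 (adjusted p = 0.258), and another, at 10.80, 10.95, 10.97 and 10.90 with DMSO and 11.16, 11.11, 11.20 and 11.22 with ICRF-193, had a change of 0.27 (adjusted p = 0.0874). Ptprf groups at that probe set did not overlap, and the call was made with the set of arrays as a block (adjusted p = 0.0448). Ptprs had changes between -0.15 and -0.30 in its 3 bright probe sets, Ptpro -0.21 and -0.42, and Ptprz1 between -0.36 and -0.52, with adjusted p from 0.234 up. With the set of arrays as a block the brightest Ptprz1 probe set, at -0.36, was called lower (adjusted p = 0.0357). Ptprm, a homophilic adhesion receptor as long as Ptprg, read 7.37, 6.76, 7.25 and 6.92 with DMSO and 6.45, 5.93, 6.47 and 6.75 with ICRF-193. Its groups nearly touched, and the change of -0.67 missed the threshold (adjusted p = 0.115). In 1 limma fit of all arrays it was called lower (adjusted p = 0.0213). Its mean with ICRF-193, 6.40, lay below the filter.

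**Figure D3:**
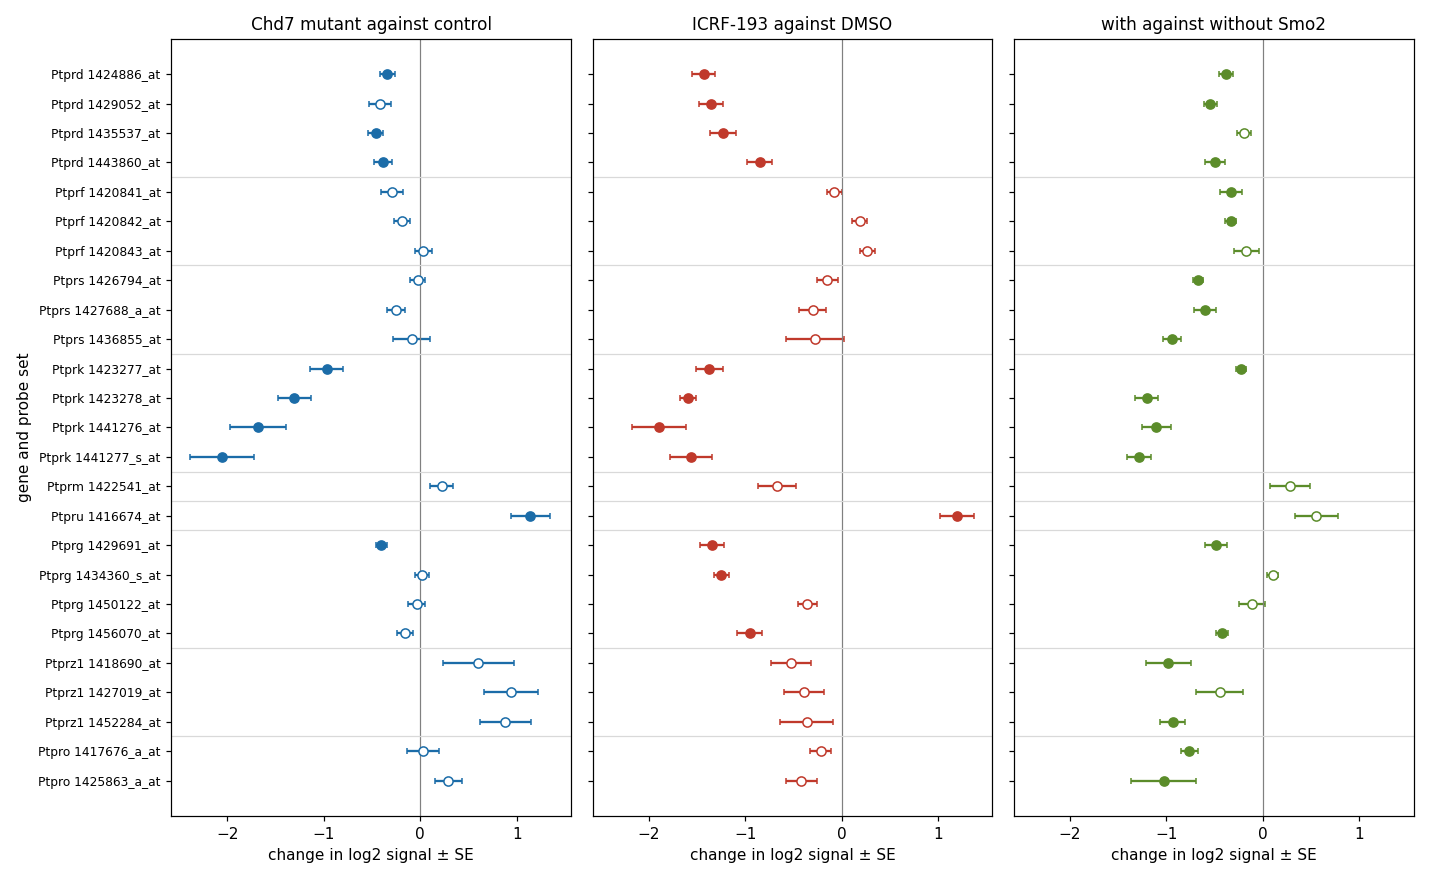
Change in log2 signal with its SE for each of the 25 bright probe sets in the 3 comparisons, filled where limma called it at an adjusted p under 0.05 and open otherwise. Ptprk is filled below 0 in every panel, Ptpru is filled above 0 in the first and the second panel, and Ptprd and Ptprg lie further below 0 with ICRF-193 than in the mutant.

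The mutant change minus the ICRF-193 change was tested in a single fit of these 16 arrays, which share no control. It was above 0 for 7 of the 25 probe sets and below 0 for 0 of them, where 2.79% and 1.88% of all probe sets were called above and below 0. At an unadjusted p under 0.05, limma counted 13 above and 1 below. Ptprd differed by 1.09 (adjusted p = 0.000384), 0.94 and 0.77 in 3 probe sets and Ptprg by 1.27 (adjusted p = 4.5e-06), 0.94 and 0.79 in 3. Of these 3 Ptprg probe sets 1 fell in the mutant, and that with the difference of 1.27 had a change of 0.02 there. Ptprm differed by 0.89 (adjusted p = 0.0474). For the brightest Ptprk probe set the difference was 0.29 ± 0.20 (SE, adjusted p = 0.511) and for Ptpru -0.06 ± 0.28 (adjusted p = 0.953). Neither difference passed. With the replicate number as a block 11 were above 0 and 1 below.

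The third comparison sets cells with and without Smo2 side by side. With Smo2, 18 of the 25 probe sets fell (72%) and 0 rose, where 34.9% of all probe sets tested fell and 26.3% rose. At an unadjusted p under 0.05, 1 rose with limma, and the methods' t-test after Benjamini-Hochberg adjustment also called 0. The median change was -0.49 for the members and -0.10 for all probe sets. Scaling matters in this comparison: of all calls 57% were lower after quantile normalization, 60.7% as deposited and 45.4% after median centring, which moved the median of all probe sets to 0.02. After median centring 14 member probe sets fell and 1 rose, that of Ptprg named first below.

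Ptprk read 10.63, 10.55 and 10.72 without and 9.22, 9.64 and 9.42 with Smo2. Its mean fell from 10.63 ± 0.09 to 9.43 ± 0.21 (SD, n = 3), a 2.31-fold decrease (limma adjusted p = 0.000277), with no overlap. Its other bright probe sets fell with changes of -1.29, -1.10 and -0.22, the last of which did not pass after median centring (-0.10, adjusted p = 0.166). Ptpru read 6.68, 6.24 and 6.78 without and 6.71, 7.26 and 7.39 with Smo2, groups that overlapped, with a change of 0.55 (adjusted p = 0.0715, or 0.0182 without Smo2 replicate 1).

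Of the other long members, the brightest Ptprg probe set read 9.80, 9.83 and 9.85 without and 9.85, 9.95 and 9.97 with Smo2, a change of 0.10 (adjusted p = 0.195, or 0.0109 and called higher after median centring), while 2 other Ptprg probe sets fell with changes of -0.49 and -0.42, the first of which was lost after median centring (-0.33, adjusted p = 0.0526). Ptprd fell in 3 of 4 probe sets, by 0.54 in the brightest (12.30, 12.26 and 12.28 without, 11.62, 11.81 and 11.79 with Smo2). Ptprm had a change of 0.28 (adjusted p = 0.273). The replicate numbers did not mark arrays that deviated together here, so the blocked fit is given only among the alternatives.

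In this comparison the short Ptprs, a receptor for proteoglycans, fell too. Its brightest probe set read 13.89, 13.86 and 13.89 without and 13.18, 13.21 and 13.21 with Smo2. The groups stood far apart for the spread within them, the mean fell by 0.68 (adjusted p = 0.000115), and the other probe sets had changes of -0.94 and -0.60, both called. Ptprf fell in 2 of 3 probe sets, with changes of -0.34 and -0.33, and both calls were lost after median centring (adjusted p = 0.102 and 0.129). The second Ptprf call was lost in 8 of 14 alternatives. Among these were no filter (adjusted p = 0.117), the methods' t-test after adjustment (0.0973) and several single arrays left out (up to 0.129). Ptpro, an axonal receptor, fell with changes of -0.77 and -1.03. The second was lost without any one of the arrays lacking Smo2 (adjusted p up to 0.0933) and was -0.63 without Smo2 replicate 1. Ptprz1 fell in 2 of 3 probe sets, with changes of -0.94 and -0.98. Beside the marker counts that follow, 34.9% of all probe sets tested fell with Smo2 and 26.3% rose. The oligodendrocyte lineage markers had a median change of 0.32 here, with 3 higher and 2 lower of 7. Astrocyte markers had one of -0.75, with 3 higher and 6 lower of 9. All 5 microglial and all 3 interneuron markers measured fell, as did 6 of 7 granule lineage markers, while the progenitor gene Atoh1 rose by 1.74. The part of these shifts in the member values was not tested.

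Over the 6 groups the level of Ptprk ran from 10.96 ± 0.22 in Chd7 control, 10.70 ± 0.09 with DMSO and 10.63 ± 0.09 without Smo2 to 9.66 ± 0.32 in the mutant, 9.43 ± 0.21 with Smo2 and 9.11 ± 0.09 with ICRF-193. Neighbours in this order overlapped apart from the step between the untreated and the perturbed groups and that between Smo2 and ICRF-193. Ptpru ran the other way, from 7.49 ± 0.32 with ICRF-193, 7.28 ± 0.37 in the mutant and 7.12 ± 0.36 with Smo2 to 6.57 ± 0.29 without Smo2, 6.29 ± 0.23 with DMSO and 6.14 ± 0.26 in Chd7 control. Each neighbouring pair of groups in that order overlapped.

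Changes of paralogues were compared within arrays, over 7 pairs in each comparison, with an exact two-sided permutation test of the arrays. The test takes arrays as unpaired. With same-numbered arrays as 4 pairs no exact p below 0.125 is possible, so no pair could pass. Pairs with Ptpru are given as a description with no test, since Ptpru passed the filter through the groups where it was high. All 7 pairs were chosen with earlier results known, and the test does not allow for the sets of arrays that resembled each other. The exact p-values of the other pairs are therefore descriptions of these arrays as well. The change of Ptprk minus that of Ptpru was -2.44 in the mutant and -2.79 with ICRF-193. With Smo2 the difference was -1.76, and it was -0.78 with the second brightest Ptprk probe set in place of the first.

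The change of Ptprk minus that of Ptprm was -1.52 in the mutant (interval -1.97 to -1.08) and -0.92 with ICRF-193 (-1.43 to -0.40). Ptprm is the longer gene, and the part of length in this difference was not tested. The Ptprm mean with ICRF-193, 6.40, lay below the filter. Both differences had an exact p of 0.0286, the smallest that 4 against 4 arrays allow, while 3 against 3 arrays cannot go below 0.1. Adjusted over all 7 pairs these were 0.0333 and 0.0400. That adjustment counted the pairs with Ptpru, which are no test, so the adjusted values are descriptions too. The change of Ptprm minus that of Ptpru, again a description, was -0.92 in the mutant and -1.87 with ICRF-193.

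In the LAR subfamily, the long Ptprd and the short Ptprs and Ptprf separated with ICRF-193, by -1.21 (-1.46 to -0.96) and -1.55 (-1.83 to -1.27), each with an exact p of 0.0286. In the mutant the difference from Ptprs was -0.39 (-0.61 to -0.18, exact p = 0.0286) and that from Ptprf -0.23 (-0.47 to 0.02, exact p = 0.0857). With Smo2 Ptprd and Ptprs differed by 0.13 (-0.01 to 0.27). The short genes Ptprf and Ptprs differed by -0.17 (-0.27 to -0.06, exact p = 0.0286) in the mutant and by 0.34 (0.05 to 0.62, exact p = 0.0571) with ICRF-193.

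Ptprg and Ptprz1 differed by -0.86 (-1.52 to -0.20, exact p = 0.0286) in the mutant and by -0.88 (-1.74 to -0.03, exact p = 0.0571) with ICRF-193. The difference with Smo2 had the opposite sign, 1.04 (0.73 to 1.35). These values rest on the brightest Ptprg probe set, with changes of 0.02 in the mutant and 0.10 with Smo2. The other bright Ptprg probe sets had changes of -0.40, -0.16 and -0.04 in the mutant and of -0.49, -0.42 and -0.11 with Smo2.

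**Figure D4:**
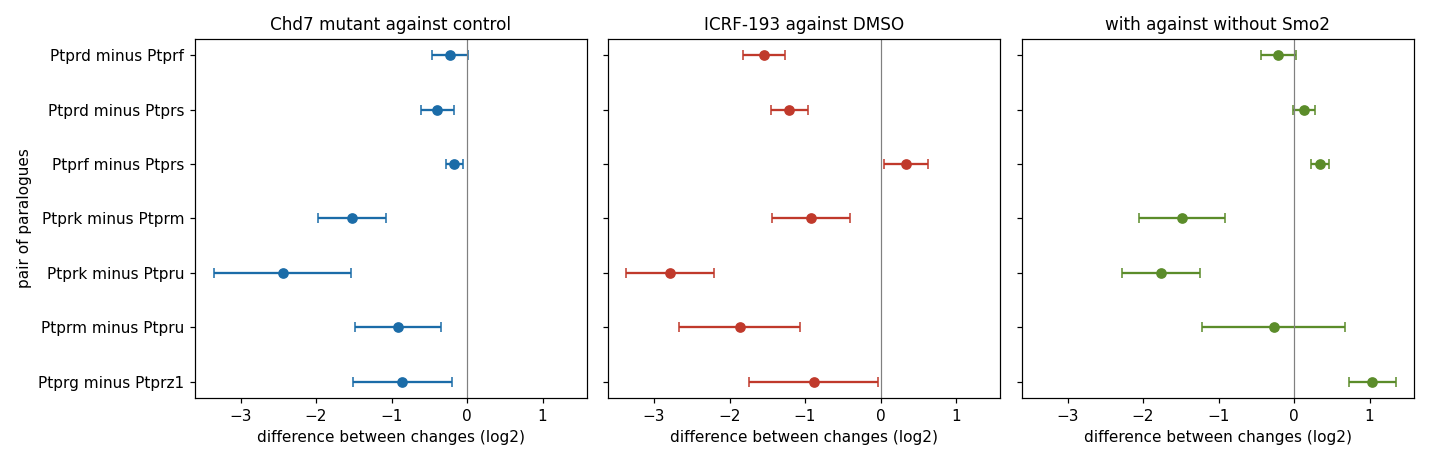
Change of the first named paralogue minus that of the second (log2, brightest probe sets) with its 95% interval, for 7 pairs in the 3 comparisons. Intervals of pairs with Ptpru are no test, since Ptpru passed the filter through the groups where it was high. Ptprk minus Ptpru lies furthest below 0 in each panel, at -2.44, -2.79 and -1.76, and Ptprd separates from Ptprf and Ptprs mainly with ICRF-193.

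Set against gene length, the brightest probe sets gave a Pearson r of -0.83 and a Spearman rho of -0.83 between change and log10 length over the 9 genes with ICRF-193, of -0.45 and -0.32 in the mutant and of -0.07 and 0.02 with Smo2. These are descriptions over genes measured on the same arrays, and they include Ptpru, which passed the filter through the groups where it was high. Among all genes over 500 kb (134 genes), 56.7% fell with ICRF-193, 29.1% in the mutant and 71.6% with Smo2, where genes up to 100 kb (9178 genes) gave 1.01%, 2.15% and 34.7%. Of the 4 measured members over 500 kb, by their brightest probe set, 3 fell with ICRF-193, 1 in the mutant and 2 with Smo2.

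**Figure D5:**
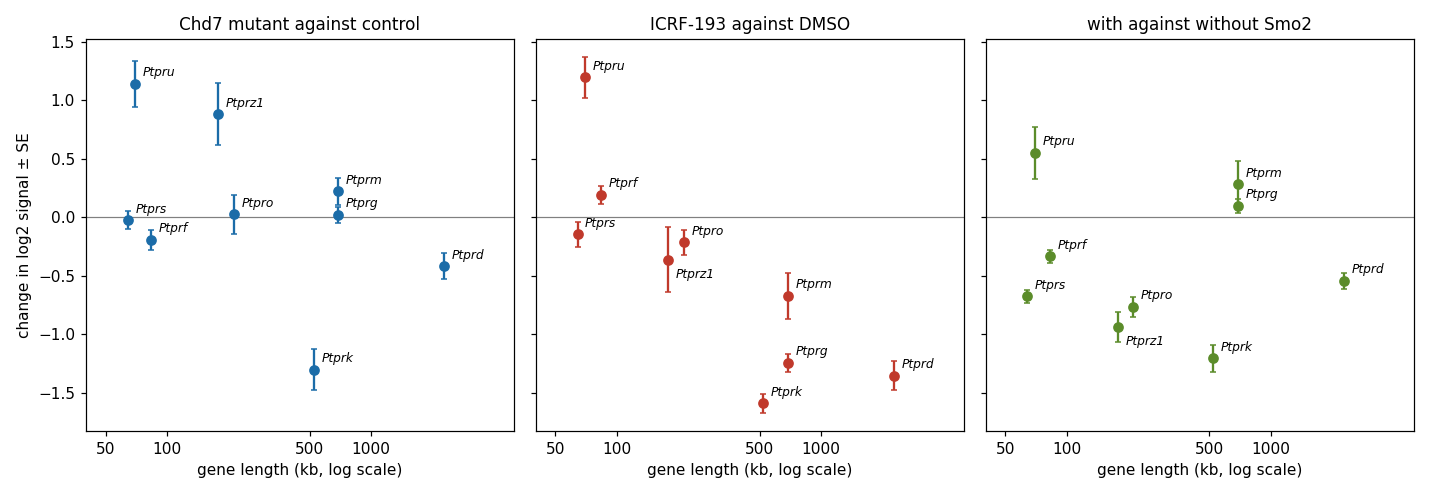
Change in log2 signal with its SE (brightest probe set) against gene length in kb on a log axis, for 9 members in the 3 comparisons. With ICRF-193 the members over 500 kb lie at -0.67 and below and Ptpru at 1.20, while with Smo2 short and long members are mixed.

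Other genes of these pathways were described from lists, by the brightest probe set of each gene. In the mutant their counts stand beside a background of 3.44% of all probe sets lower and 3.41% higher. The background was 2.77% lower and 1.98% higher with ICRF-193, and 34.9% lower and 26.3% higher with Smo2. These shares are over probe sets, while the list counts are over genes. Of 9 other measured receptor phosphatases, 0 passed in the mutant (3 lower and 1 higher at an unadjusted limma p under 0.05) and 0 with ICRF-193 (2 lower and 0 higher), while 8 fell with Smo2, among them Ptprc of leukocytes (-1.58) and Ptpre (-1.37). Of 16 measured ligands, 5 fell and 1 rose in the mutant. Il1rapl1 (-1.49), Slitrk4 (-1.12) and Slitrk1 (-1.11), postsynaptic partners of the LAR subfamily, fell with Slitrk5 and with Ptn, which encodes pleiotrophin, whereas Il1rap, a relative of Il1rapl1, rose by 1.16. The list's median was -0.13 and that of all probe sets -0.02.

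With ICRF-193, 5 of the 16 ligands fell and 0 rose (0 at an unadjusted limma p under 0.05 as well), with a median of -0.27. Those named by size were Tnr, the matrix protein tenascin R (-2.64), Il1rapl1 (-1.97), Slitrk2 (-0.86) and Mdk, which encodes midkine (-0.71). With Smo2, 11 fell and 2 rose. Tnr (-1.81) and the contactin gene Cntn1 (-1.55) fell, while Mdk (2.24) and Ntrk3, a neurotrophin receptor that binds Ptprs (0.69), rose.

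Among 14 measured proteoglycans, which carry the sugar chains that LAR receptors bind, 4 rose and 0 fell in the mutant (1 fell at an unadjusted limma p under 0.05). These were the syndecans Sdc4 (1.18) and Sdc2 (0.40), the glypican Gpc6 (0.68) and brevican, Bcan (0.85), and the list had a median of 0.28. With ICRF-193 Gpc6 fell by 1.60 and Sdc3 rose by 0.56, and with Smo2 5 rose, led by Gpc1 (2.38) and Gpc6 (2.26), and 6 fell, led by Ncan (-1.41) and Cspg5 (-1.15). Of 20 cytoplasmic partners, 0 passed in the mutant (4 lower and 1 higher unadjusted, limma), and with ICRF-193 2 fell, the catenin gene Ctnnd2 (-1.33) and the liprin gene Ppfia2 (-0.57). With Smo2 11 fell, led by Ppfia2 (-1.55), and 5 rose, led by Ppfibp1 (1.08).

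The genes whose signal ran most like that of Ptprk over the 22 arrays were Kcnd2, a potassium channel (Pearson r = 0.95), Fgf13 (0.95), the sorting receptor Sorcs1 (0.94), Cadps2 (0.94) and Galntl6 (0.93). For Ptpru they were Doc2b, a calcium sensor of vesicle release (0.87), Rph3al (0.86), Tmem176b (0.86), Apcdd1 (0.83) and Gfra2 (0.83). These values are given as a description, since the arrays fall into groups that differ in both genes.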

How the data were processed

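The authors deposited 1 table of Affymetrix signal intensities for the 22 arrays, with no log scale and a trimmed mean of 500 on each array. The sources used here name no software for this step. Probe sets were named through GEO's platform annotation (34958 with 1 symbol, 932 with several, 9211 with none) and lengths and promoters were taken from RefSeq tables of GRCm38.p6.

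Intensities were raised to a floor of 16, put on the log2 scale and quantile normalized, since array medians ran from 6.33 to 6.81. Pairs of groups were compared by limma (version 3.58.1, R 4.3.3) over 22551 probe sets, two-sided, with Benjamini-Hochberg adjustment and calls at an adjusted p under 0.05. "Rose" and "fell" mean such a call. Intervals are 95% and cover the arrays only. Arrays give no counts, so their number limits the precision.

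Members, lists, pairs and rules were chosen with earlier results of these data known. All members with every bright probe set were named, with up to 4 called genes of each list and the 5 genes most like Ptprk and Ptpru. Same-numbered arrays deviated together in the mutant (correlations 0.30 to 0.35) and ICRF-193 comparisons (0.28 to 0.41), and not with Smo2 (0.02 to 0.04). Differently numbered arrays of a set did so too, such as mutant replicate 2 with control replicate 1 (0.36). For ICRF-193 replicate 1 with DMSO replicate 2 the correlation was 0.32. These correlations thus mark the sets of arrays and give no pairing by number. No 2 arrays held identical values. Alternatives changed scaling, floor, filter, block, variance model, test and probe set, and left out each array. The fits were tested on simulated data. Plots used matplotlib 3.10.9 (Python 3.11.15).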

Additional observations from a re-analysis of the deposited data

Results flagged for a closer look

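Of 100 groups of 4 arrays examined at the bright member probe sets, 1 held an array far from the others. The brightest Ptprg probe set read 8.61 on ICRF-193 replicate 4, where the other 3 arrays of the group read between 8.79 and 8.81. The measure was the gap to the nearest array over the group's range, and its 95% critical value by itself sets an array apart in about 1 of 20 groups. Without that array the change of this probe set with ICRF-193 was -1.20, against -1.25 with it.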

How the results depend on the processing

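Leaving out each array in turn left 6 to 7 lower and 1 higher member probe sets in the mutant, 11 lower and 1 higher with ICRF-193, and 17 to 18 lower and 0 to 1 higher with Smo2, the 1 being Ptpru without Smo2 replicate 1. Without an array the difference between the mutant and ICRF-193 changes was called above 0 for 6 to 8 probe sets and below 0 for 0 to 1, the 1 arising without mutant replicate 3. Of the calls, 0 of 9 in the mutant, 4 of 12 with ICRF-193 and 13 of 18 with Smo2 held in every alternative run. These counts cannot be set against each other. Probe sets faced 20 or 21 alternatives in the mutant and with ICRF-193, including the settings with fewer samples given below. With Smo2 they faced 14 or 15, without those settings. The brightest Ptprk probe set lost its mutant call in 1 of 21, that with set means as samples. With the replicate number as a block, 4 probe sets rose in the mutant, 1 rose with Smo2 (Ptprm, adjusted p = 0.0285), and the difference was above 0 for 11 and below 0 for 1. That difference was also called below 0 for 1 probe set as deposited, with no filter, and with a variance trend and robust moderation. With the set of arrays as a block 4 rose in the mutant and 2 with ICRF-193, and 2 also rose with ICRF-193 by the variance trend and by the methods' t-test. In 1 fit of all arrays 3 rose in the mutant and 13 fell with ICRF-193, and after median centring 1 rose with Smo2. With only the brightest probe set of each gene, 1 of 9 fell in the mutant, 3 with ICRF-193 and 6 with Smo2. The mutant count was lower because the brightest Ptprd and Ptprg probe sets were not called there.

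Settings chosen after seeing the data used fewer samples. Replicates 1 and 2 alone gave 3 lower and 2 higher in the mutant and 6 lower and 0 higher with ICRF-193. Replicates 3 and 4 alone gave 5 lower and 4 higher in the mutant and 7 lower and 0 higher with ICRF-193. Set means as samples gave 0 lower and 0 higher in the mutant and 8 lower and 0 higher with ICRF-193.

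With replicates as pairs (the replicate block), Ptprk minus Ptpru was again -2.44 in the mutant and -2.79 with ICRF-193, where sign flips of 4 pairs allow no exact p below 0.125. Without an array these lay between -2.69 and -2.25, between -2.88 and -2.60, and with Smo2 between -1.86 and -1.62. Signs turned for uncalled changes, most of them in the mutant. The brightest Ptprs probe set was at 0.00054 as deposited, at 0.027 in replicates 3 and 4 and between -0.063 and 0.017 without an array. Another Ptprs probe set was at 0.013 in replicates 3 and 4 and between -0.20 and 0.058 without an array. The brightest Ptpro probe set was at -0.039 after median centring, at -0.14 in replicates 3 and 4 and between -0.10 and 0.13 without an array. The brightest Ptprg probe set was at -0.064 after median centring, at -0.020 in replicates 3 and 4 and between -0.0097 and 0.064 without an array. The dimmest bright Ptprg probe set was at 0.011 as deposited, at 0.034 in replicates 3 and 4 and between -0.092 and 0.021 without an array, and with Smo2 between -0.22 and 0.00016 without an array. A Ptprf probe set was at -0.073 after median centring, at -0.0087 in replicates 3 and 4 and between -0.0065 and 0.089 without an array, and with Smo2 at 0.0017 after median centring. The causes of these shifts were not tested, and 3 or 4 arrays a group limit all of them.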
